A study of Mus musculus with 4 samples.

Results

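The 84 cytosolic ribosomal protein genes measured here were read in RNA that came down with a FLAG-tagged form of NANOS2 from mouse testis at postnatal day 7. NANOS2 binds RNA and maintains the stem cells of the male germ line. Members were the genes whose symbol begins with Rpl or Rps and a digit, together with Rpsa, Rplp0, Rplp1 and Rplp2, leaving out the Rps6k kinases. They make up 84 of the 33377 features measured on all arrays. The 84 comprise 46 core proteins of the large subunit, 31 core proteins of the small subunit, 6 paralogues (Rpl3l, Rpl7l1, Rpl22l1, Rpl36al, Rpl39l and Rps27l) and Rps19bp1, which encodes a nucleolar binding partner of RPS19 and not a ribosomal protein. All 84 passed the filter on dim probes, and each was well above background on all 4 arrays.

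FLAG IP is RNA from FLAG immunoprecipitates, and Input is the starting RNA, with 2 single-colour Agilent whole-genome mouse arrays per group. Testes of both groups came from male mice with a transgene in which a Nanos2 enhancer drives FLAG-tagged Nanos2, followed by the gene's own 3′ untranslated region, so both groups share the transgene and the age. The series describes its duplicates as biological, while the labels name no animals, so it is not known whether animals were pooled. One description field names a fetal gonad, whereas the titles and characteristics give the postnatal day used here. FLAG immunoprecipitates of untagged testis were not analysed here, so a change says how a transcript's share differs between recovered and starting RNA, and by itself shows neither binding nor its absence.

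Ribosomes are built from ribosomal RNA and a fixed set of proteins, 1 copy of most of them per ribosome, so that cells make the proteins of the small and the large subunit in matched amounts. The small subunit reads the mRNA, and the large subunit joins amino acids and holds the exit tunnel for the new chain. In mammals the mRNAs of these proteins are abundant, short and stable. They start with a terminal oligopyrimidine (TOP) tract, a C followed by a run of C and T, through which their translation responds to mTOR signalling and the RNA-binding protein LARP1.

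A level here is the log2 signal less the 75th percentile of its array. A change is the mean level of the FLAG IP arrays minus that of the Input arrays, given with limma's moderated standard error (n = 2 arrays per group). "Lower" and "higher" as calls mean an adjusted p under 0.05 in limma over all 21589 tested features. Of 41174 probes 66.3% to 68.4% per array were well above background. Unscaled, the 75th percentile stood at 1019 and 1267 intensity units in FLAG IP, against 1474 and 1676 in Input. All 4 arrays lay on 1 slide and were scanned together. The tagged gene itself, Nanos2, was at −1.94 and −2.44 in the FLAG IP arrays, against −3.87 and −3.66 in the Input arrays, a rise of 1.58 ± 0.22 (adjusted p = 0.0105).

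Ribosomal protein transcripts were mostly lower in the FLAG IP. Of the 84 members 59 were called lower and 0 higher, with 25 not called, and 0 were higher at an unadjusted p under 0.05. Over all tested features 21.3% were called lower and 15.8% higher. The median change of the members was −0.74, or 1.67-fold lower, against −0.15 for all tested features. Both FLAG IP arrays lay below both Input arrays for 80 members (44.7% of all features) and above them for 0 members (29.8% of all features). The groups overlapped for Rps27a, Rpl22l1, Rplp0 and Rpl7l1. Of the members 22 were called lower by 2-fold or more, against 8.65% of all features. Changes spanned −2.49 for Rps19 to 0.08 for Rpl7l1, the member with a positive change. Under quantile and cyclic loess normalization, fitted on all probes with the members' included, 17 and 14 members had a positive change. The members' median was −0.39 and −0.48. In each 34 members were lower, 30 of them in both. Of all features 19.3% and 16.4% were lower under these normalizations, with medians of −0.093 and −0.035.

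The members' median level was 5.15 and 5.19 in the FLAG IP arrays, against 6.15 and 5.92 in the Input arrays. Input 1 lay above Input 2 for 77 of the 84 members, by a median of 0.21, whereas FLAG IP 1 lay above FLAG IP 2 for 34. Setting each FLAG IP array against each Input array gave median changes of −0.85, −0.67, −0.81 and −0.62, all below the −0.13 to −0.16 of all features in the same pairs. Counts of calls rested on having both Input arrays: without Input replicate 1 the members called lower were 5, where 3.18% of all features were, and without Input replicate 2 they were 8, where 2.48% were. Without FLAG IP replicate 1 they were 40, where 17.0% of all features were, and without FLAG IP replicate 2 they were 45, where 18.8% were. The median change of the members without 1 array lay between −0.83 and −0.63.

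Several lists of markers of somatic testis cells also held genes called lower on these arrays, 17 of 33 genes in all, with 0 higher, where 21.3% of all features were lower. Of 9 germ cell markers Gfra1, a receptor of stem spermatogonia, was higher, 0 were lower (1 at an unadjusted p under 0.05), and the median change was 0.16. Their levels, on the linear scale relative to the 75th percentile, summed to 106 to 144 in the FLAG IP arrays against 106 to 110 in the Input arrays. Summed likewise, Sertoli markers had 4 of 8 lower (92.3 to 96.2 in FLAG IP against 134 to 136 in Input), Leydig markers 4 of 7 (13.7 to 17.6 in FLAG IP against 29.0 to 38.4 in Input), peritubular myoid markers 3 of 6 (65.7 to 68.5 in FLAG IP against 94.0 to 105 in Input) and macrophage markers 4 of 4 (1.11 to 1.24 in FLAG IP against 2.67 to 2.74 in Input). Endothelial markers had 0 of 5 lower, with 2 at an unadjusted p under 0.05 (1.22 to 1.65 in FLAG IP against 1.52 to 2.12 in Input), and red blood cell markers 2 of 3 (23.0 to 28.8 in FLAG IP against 44.1 to 67.9 in Input). All of these markers but 1 were well above background on all 4 arrays, the exception being the Leydig marker Lhcgr, not well above background in either FLAG IP array. Transcripts of these testis cell types were thus detected in both groups. The sums of linear levels weigh the brightest genes of a list most. Examples are Clu among Sertoli markers (mean level 6.34) and Acta2 among peritubular myoid markers (5.83), neither of them called. Every cell type expresses ribosomal proteins. Input is the starting RNA, so a lower marker means a smaller share of the recovered RNA and does not measure a number of cells. The part of these markers in the ribosomal protein changes was not tested.

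**Figure D1:**
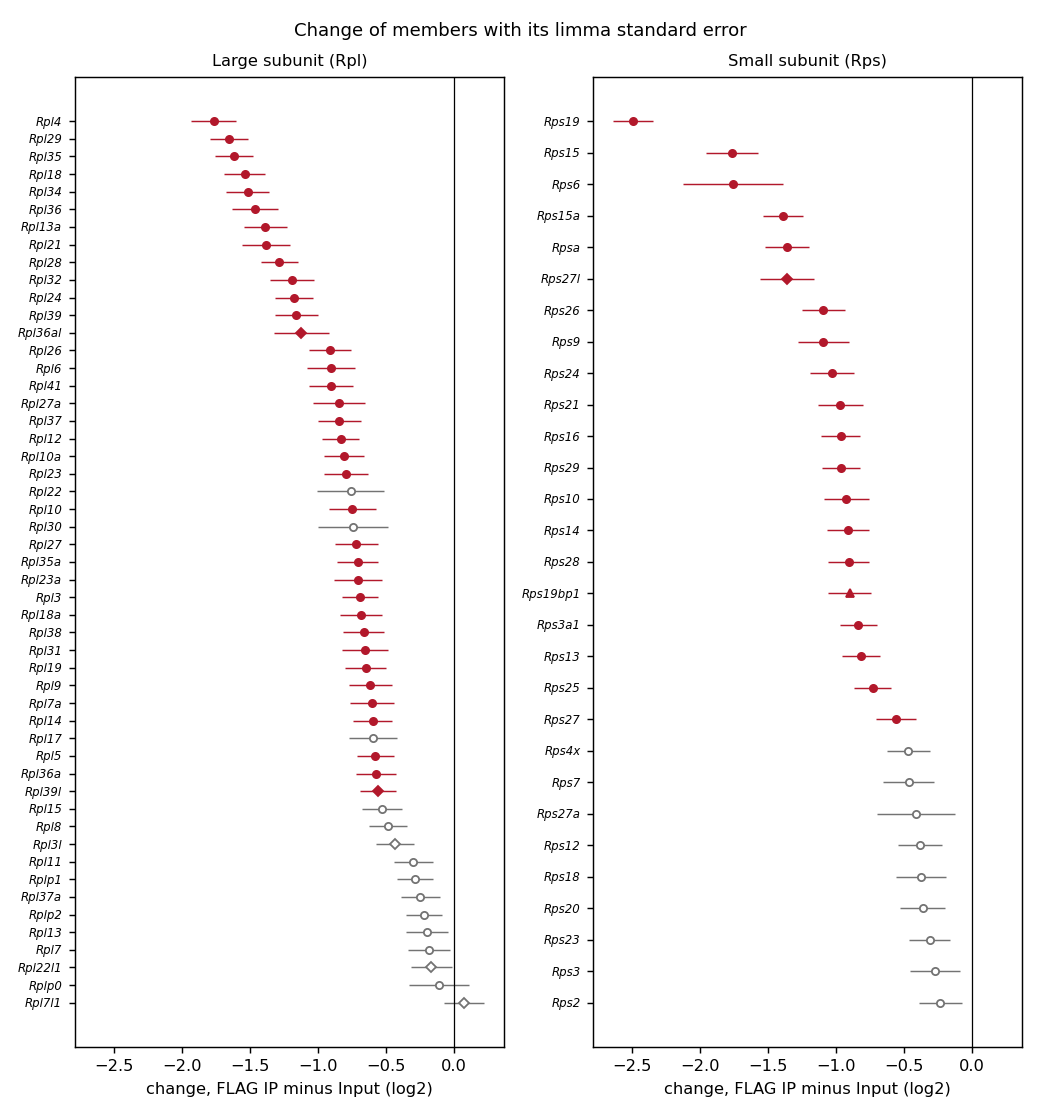
Change of 80 of the 84 ribosomal protein transcripts, FLAG IP minus Input on the log2 scale, with its limma standard error (n = 2 arrays per group), for genes named Rpl (left) and Rps (right). Filled red symbols were called lower and open grey symbols were not called, circles are core proteins, diamonds are paralogues and the triangle is Rps19bp1. Points lie left of 0 for 79 of the 80 genes under the main scaling, whereas 17 of the 84 were above 0 under quantile and 14 under cyclic loess normalization.

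Among small subunit proteins, Rps19 stood apart. Rps19 and Rps15 were each read from a lone probe of low signal for this family, at mean levels of 2.09 and 2.63. The median level of the core small subunit members was 5.83. The 12 members between levels 2 and 4 had a median change of −1.15. Rps19 (NM_023133) encodes a protein of the subunit's head that is required for maturation of the small subunit and is mutated in human Diamond-Blackfan anaemia. Its level was 0.85 and 0.84 in the FLAG IP arrays, against 3.44 and 3.23 in the Input arrays. The FLAG IP arrays were almost equal and far below both Input arrays, a fall of 2.49 ± 0.15, or 5.64-fold (adjusted p = 0.00394). Rps15 (NM_009091), another head protein close to the decoding site, was at 1.80 and 1.69 in the FLAG IP arrays, against 3.72 and 3.31 in the Input arrays, and fell by 1.77 ± 0.19 (adjusted p = 0.00673). Rps6 (NM_009096), the ribosomal protein phosphorylated by S6 kinases downstream of mTOR, was at 4.39 and 3.34 in the FLAG IP arrays, against 5.66 and 5.58 in the Input arrays. Its FLAG IP arrays differed by 1.06, the widest gap between replicates of any member, and both lay under the Input arrays, a change of −1.76 ± 0.37 (adjusted p = 0.0245) that was not called under quantile normalization (adjusted p = 0.0551).

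A further group of small subunit members was lower on every array of the FLAG IP. Rps15a was at 4.87 and 5.05 in the FLAG IP arrays, against 6.37 and 6.33 in the Input arrays, and fell by 1.39 ± 0.14. Rpsa, also known as the laminin receptor precursor, was at 3.72 and 3.87 in the FLAG IP arrays, against 5.29 and 5.03 in the Input arrays, and fell by 1.36 ± 0.16. In both genes the arrays of a group lay close together and the groups were well apart. Rps9 (−1.09 ± 0.18), Rps24 (−1.03 ± 0.16) and Rps26 (adjusted p = 0.0112) were also lower, and Rps24 and Rps26 are further genes of human Diamond-Blackfan anaemia. Rps21, Rps16, Rps29, Rps10, Rps14 and Rps28 had changes between −0.97 and −0.91, all called lower with adjusted p between 0.012 and 0.017. Rps3a1, Rps13, Rps25 and Rps27 were also called lower, at −0.84 to −0.56. The members down to Rps28 kept their call under quantile and cyclic loess normalization, apart from Rps6, whereas of these last 4 only Rps13 did so, under cyclic loess alone.

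The 10 core small subunit members that were not called included Rps2 and Rps3, which line the entry of the mRNA channel. Rps2 was at 6.85 and 6.80 in the FLAG IP arrays, against 7.20 and 6.92 in the Input arrays, a change of −0.23 ± 0.16 (adjusted p = 0.299). Rps3 was at 6.13 and 6.19 in the FLAG IP arrays, against 6.62 and 6.24 in the Input arrays, a change of −0.27 ± 0.18 (adjusted p = 0.282). Dimmer probes of Rps2 and Rps3 had −0.55 and −0.50, not called. On the brightest probes both FLAG IP arrays lay under both Input arrays, by a smaller step than separated the Input arrays from each other. The change of these brightest probes was above 0 under quantile and cyclic loess normalization. Rps23, whose loop reaches the decoding centre, was at 7.34 and 7.31 in the FLAG IP arrays, against 7.75 and 7.52 in the Input arrays, a change of −0.31 ± 0.15 that was likewise above 0 under quantile and cyclic loess normalization. Rps18, among the 3 brightest members with Rps23 and Rps14, was at 7.09 and 7.06 in the FLAG IP arrays, against 7.64 and 7.26 in the Input arrays, a change of −0.37 ± 0.18. Unlike these, Rps14 was called lower, at 6.66 and 6.82 in the FLAG IP arrays, against 7.75 and 7.56 in the Input arrays, a change of −0.92 ± 0.15. Rps27a, made as a fusion with ubiquitin, was at 4.52 and 4.98 in the FLAG IP arrays, against 5.49 and 4.84 in the Input arrays, and its groups overlapped (−0.41 ± 0.29, adjusted p = 0.303). Rps4x, Rps7, Rps12, Rps18 and Rps20 were not called either, at −0.47 to −0.36, and Rps4x, Rps7 and Rps12 under quantile normalization, and Rps18 and Rps20 under both that and cyclic loess, had a change above 0.

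Of the large subunit, Rpl4 (NM_024212), whose long loop forms part of the exit tunnel wall, was at 2.52 and 2.71 in the FLAG IP arrays, against 4.50 and 4.26 in the Input arrays. It fell by 1.76 ± 0.17, or 3.39-fold (adjusted p = 0.00543). Rpl29 (NM_009082) was at 2.33 and 2.21 in the FLAG IP arrays, against 3.97 and 3.87 in the Input arrays, and fell by 1.65 ± 0.14 (adjusted p = 0.00484). Rpl35 (NM_025592), a protein at the rim of the exit tunnel, was at 3.98 and 3.91 in the FLAG IP arrays, against 5.62 and 5.51 in the Input arrays, and fell by 1.62 ± 0.14 (adjusted p = 0.00484). In these 3 genes the arrays of a group lay close together and far from those of the other group. Rpl18 was at 3.99 and 4.004 in the FLAG IP arrays, against 5.65 and 5.42 in the Input arrays, a change of −1.54 ± 0.15. Rpl34 was at 4.76 and 4.96 in the FLAG IP arrays, against 6.45 and 6.30 in the Input arrays, a change of −1.52 ± 0.16. Rpl36 was at 3.79 and 3.82 in the FLAG IP arrays, against 5.43 and 5.10 in the Input arrays, a change of −1.46 ± 0.17. These 3 again showed no overlap between the groups.

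Changes of like size were seen for Rpl13a (−1.39 ± 0.16), which in human cells also takes part in inflammatory translational silencing, Rpl28 (−1.28 ± 0.13) and Rpl32 (−1.19 ± 0.16). Rpl24, which forms a bridge to the small subunit, had −1.17 ± 0.14, and Rpl39, a small protein of the tunnel wall, had −1.16 ± 0.16. All of these kept their call under quantile and cyclic loess normalization.

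The dimmest member, Rpl21, was at −3.16 and −3.38 in the FLAG IP arrays, against −2.03 and −1.74 in the Input arrays, a change of −1.38 ± 0.18. Its 4 values lay below the 75th percentile of their arrays, with no overlap between the groups. Rpl31, also dim, was at −0.55 and −0.23 in the FLAG IP arrays, against 0.30 and 0.21 in the Input arrays, a change of −0.65 ± 0.17 (adjusted p = 0.0417) that was not called under cyclic loess (adjusted p = 0.0593). Between −0.91 and −0.57 lay 22 core members called lower, Rpl31 and others, among them Rpl10, which joins the subunit late in its assembly (−0.74 ± 0.18), Rpl3, which lies at the peptidyl transferase centre (−0.69 ± 0.13), and Rpl38, which in mouse embryos is needed for translation of Hox mRNAs (−0.66 ± 0.15). Of these 22, Rpl6 and Rpl10a were called under both quantile and cyclic loess normalization. Rpl22 and Rpl30 had changes of the same size, −0.76 ± 0.25 and −0.74 ± 0.26, but FLAG IP arrays that differed by 0.57 and 0.66, and were not called (adjusted p = 0.0709 and adjusted p = 0.0823). Rpl17, Rpl15 and Rpl8 lay just outside the threshold, at adjusted p = 0.0552, adjusted p = 0.0503 and adjusted p = 0.0541.

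The least changed core members of the large subunit were bright. Rplp0, the base of the stalk that recruits elongation factors, was at 6.69 and 6.96 in the FLAG IP arrays, against 7.17 and 6.69 in the Input arrays, and its groups overlapped (−0.10 ± 0.22, adjusted p = 0.73). Rpl7 was at 6.17 and 6.26 in the FLAG IP arrays, against 6.51 and 6.28 in the Input arrays, a change of −0.18 ± 0.16. Rpl13 was at 6.33 and 6.26 in the FLAG IP arrays, against 6.61 and 6.38 in the Input arrays, a change of −0.20 ± 0.15. Rplp2, a stalk protein, was at 7.03 and 7.05 in the FLAG IP arrays, against 7.28 and 7.24 in the Input arrays, a change of −0.22 ± 0.13. Rpl37a, Rplp1 and Rpl11 followed at −0.24, −0.28 and −0.29. None of these 7 was called, and under quantile and cyclic loess normalization all 7 had a change above 0 that was not called. These values are those of the brightest probes. Dimmer probes fell further, by −0.55 for Rpl13 and −0.59 for Rplp0, both called lower, and by −0.36 and −0.49 for Rpl7, not called.

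**Figure D2:**
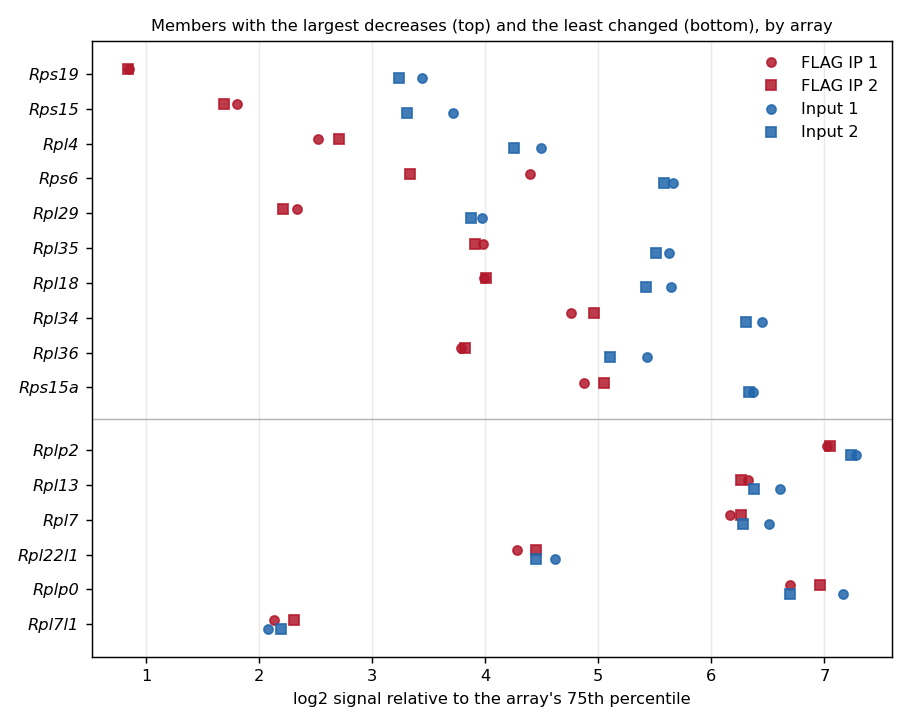
Level on each array for the 10 members with the largest decreases (upper block) and the 6 least changed members (lower block), as log2 signal relative to the 75th percentile of the array. Red symbols are the FLAG IP arrays and blue symbols the Input arrays, circles replicate 1 and squares replicate 2. In the upper block every red symbol lies left of both blue ones, and in the lower block Rplp0, Rpl22l1 and Rpl7l1 overlap and all 6 had a change above 0 under quantile and cyclic loess normalization.

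The medians of the subunits lay close together. Of 46 core large subunit members 34 were lower (73.9%), with a median change of −0.73, and of 31 core small subunit members 21 were lower (67.7%), with a median of −0.82, beside 21.3% of all features. The difference of the medians, small minus large, was −0.09, and −0.05 to −0.11 in the 4 pairs of arrays, which share arrays. It was 0.046 under quantile normalization and 0.0039 under cyclic loess, so its sign rested on the scaling, and without Input replicate 2 it was −0.016 and without FLAG IP replicate 2 −0.040. No test of a score over the members was made.

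Some members were also grouped by position in the ribosome, a grouping chosen after the values were seen and not tested. The groups differed in signal too. Median levels were 6.94 for the stalk and GTPase centre, 4.39 for the tunnel wall and 5.85 for the tunnel rim. Of all 84 members 70.2% were called lower, with a median of −0.74, beside 21.3% of all features. In the stalk and the GTPase centre (Rplp0, Rplp1, Rplp2 and Rpl12) Rpl12 alone was called, at −0.83 ± 0.14, though not under quantile or cyclic loess normalization, and the group median was −0.25. Rpl5 and Rpl11, which bind ribosomal 5S RNA and, outside the ribosome, the p53 regulator MDM2, were at −0.57 ± 0.13, called lower, and −0.29 ± 0.14, not called. The tunnel wall (Rpl4, Rpl17 and Rpl39) showed 2 of 3 lower and a median of −1.16, and the tunnel rim (Rpl19, Rpl23a, Rpl26, Rpl31 and Rpl35) had 5 of 5 lower, at a median of −0.70, of which Rpl35 was also called under both quantile and cyclic loess. Of 14 proteins of the small subunit's head 9 were lower, and the changes of the 14 ran from −2.49 for Rps19 to −0.27 for Rps3. Of the 4 X-linked core members, Rpl10, Rpl36a and Rpl39 were lower, of which Rpl39 also under quantile and cyclic loess normalization, and Rps4x was not called.

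Read against their signal, the brightest members changed least. Over all 84 members the change rose with the mean level over the 4 arrays (Pearson r = 0.33, Spearman rho = 0.47), with r = 0.41 and rho = 0.59 over the 46 large subunit genes and r = 0.77 and rho = 0.66 over the 31 small subunit genes. The mean level contains the FLAG IP and the Input values that enter the change. On the Input level alone the relation over the 84 was weaker (r = 0.22, rho = 0.36). The Input level enters the change with a minus sign, so neither level is independent of the change. These are descriptions across genes of the same 4 arrays, and the level of a probe depends on its sequence as well as on its transcript. Over the 21505 other tested features rho was 0.0061. Of these, 17905 lay below a level of 2, where 4 members lay, so the 2 values of rho cover unlike ranges of signal. The median change of the other features was −0.11 below a level of 2 and −0.39 between 5 and 6.

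Of 29 members with a mean level over 6, where 58 other features lay, 15 were lower (51.7%), with a median of −0.50 against −0.37 for the other features, 29.3% of which were lower. For 22 members between 5 and 6 the median was −0.76, and 17 were lower, against −0.39 and 37.4% for 155 other features. The 17 members between 4 and 5 had a median of −0.93, with 13 lower, against −0.32 and 26.7% for 498 others. The 12 members between 2 and 4 had a median of −1.15, with 11 lower, against −0.22 and 23.4% for 2889 others. Below a level of 2 lay 4 members, Rpl3l, Rpl21, Rpl31 and Rpl14, with a median of −0.62 against −0.11 for 17905 others.

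The gap between the members and other features of like signal thus measured −0.13 in the brightest range and −0.93 between levels 2 and 4. Of the 84 members 71 lay below the median of the other features in their own range, with a median difference of −0.51 over these 71 and −0.42 over all 84. Members made up 29 of the 87 features with a mean level over 6. Quantile and cyclic loess normalization were fitted on all probes, members included, so they are no independent check on the bright members. How far this shaped the changes of bright members was not tested. After cyclic loess normalization, which removes a trend of the change on the level, the members' median was −0.13 against −0.02 for other features over a level of 6, and −0.95 against −0.03 between 2 and 4. There 6 of 29 and 9 of 12 members were called lower, where 16.4% of all features were. No spot of any array was flagged as saturated.

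**Figure D3:**
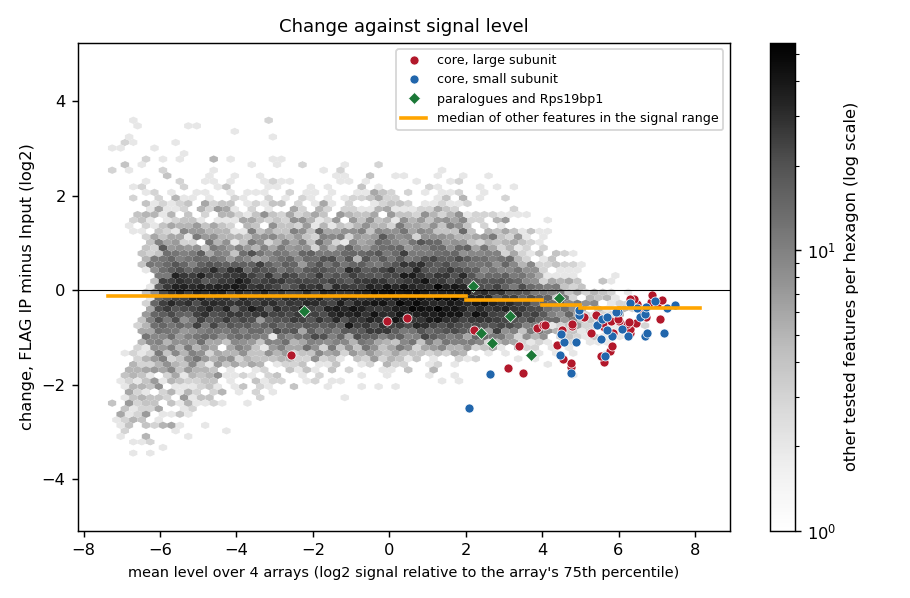
Change, FLAG IP minus Input (log2), against the mean level over the 4 arrays for all 21589 tested features. Red and blue circles are core proteins of the large and the small subunit, green diamonds the paralogues and Rps19bp1, grey hexagons count the other features on a log scale, and orange lines are the median change of the other features in each signal range. Members lie furthest below the orange line between levels 2 and 4, and over a level of 6 their median is −0.50 against −0.37.

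Probes of the same gene gave another reading of level, from a limma fit over all 27823 tested probes. Of the 84 members 31 had more than 1 probe, and of the 121 probes in all 82 were called lower, 0 higher and 120 had a negative change. Of all tested probes 20.1% were called lower, 15.6% higher and 57.2% had a negative change. The brightest probe of each gene gives the values above. Of the 37 dimmer probes 27 showed a larger decrease than the brightest probe of their gene. The median was −0.87 over all 37 dimmer probes, against −0.71 over the brightest probes of the same 31 genes. Rps18 had −0.37 on its brightest probe and −1.05 ± 0.16 on the other (adjusted p = 0.013). Rpl7a had −0.60 on its brightest probe and −1.58 ± 0.17 and −0.75 ± 0.33 on the others, and the second probe of Rplp0 had −0.59 ± 0.15 (adjusted p = 0.039) where the brightest was not called.

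The 4 probes of Rpl29 lay between −1.83 and −1.55, and both probes of Rpl34 were low, at −1.52 and −2.15. Rpsa went the other way, with −1.36 ± 0.16 on its bright probe and −0.17 ± 0.16 on a probe at a level of −1.66 (adjusted p = 0.43), the one gene whose probes differed by more than 1. The call differed between the probes of 11 genes, Rpl13, Rpl17, Rpl36a, Rpl37, Rpl39l, Rpl7a, Rplp0, Rps18, Rps21, Rps3a1 and Rpsa. RefSeq lists 309 pseudogene entries with names of this family beside 91 protein-coding ones, so a probe may also bind transcripts of near-identical copies, and the array cannot separate them. All 84 members are protein-coding.

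**Figure D4:**
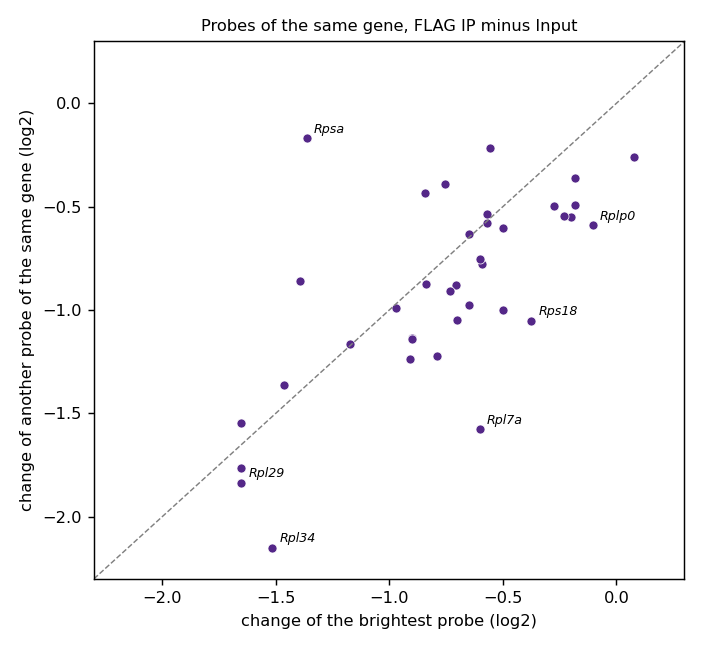
Change of the other probes of a gene against the change of its brightest probe, both FLAG IP minus Input on the log2 scale, for the 31 members with more than 1 probe. Each point is 1 of 37 dimmer probes and the dashed line marks equal changes. Points lie below the line for 27 of the 37, and Rpsa lies furthest above it.

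Of the 6 paralogues 3 were lower and 3 were not called, where 21.3% of all features were lower. Rps27l, a relative of Rps27 that is induced by p53, was at 2.84 and 3.22 in the FLAG IP arrays, against 4.51 and 4.27 in the Input arrays, and fell by 1.36 ± 0.20 (adjusted p = 0.0113), where Rps27 itself fell by 0.56 ± 0.15. Rpl36al, an intronless relative of Rpl36a, fell by 1.12 ± 0.20, where Rpl36a fell by 0.57 ± 0.15. Rpl39l, the form of Rpl39 found in ribosomes of male germ cells, was at 2.87 and 2.89 in the FLAG IP arrays, against 3.42 and 3.45 in the Input arrays. It fell by 0.56 ± 0.13 (adjusted p = 0.0332, but 0.0568 under quantile and 0.0972 under cyclic loess), where Rpl39 fell by 1.16 ± 0.16, and its second probe, at a level of −2.68, had −0.21 and was not called.

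Rpl22l1 was at 4.29 and 4.45 in the FLAG IP arrays, against 4.61 and 4.45 in the Input arrays, overlapping, with a change of −0.16 ± 0.15, where Rpl22 had −0.76 ± 0.25. Rpl7l1 was at 2.13 and 2.31 in the FLAG IP arrays, against 2.08 and 2.20 in the Input arrays, also overlapping, with a change of 0.08 ± 0.15, where Rpl7 had −0.18 ± 0.16. Rpl7l1 was the member with a positive change, and averaging its probes gave −0.09. Rpl3l, the form of striated muscle, was dim in testis, at −2.39 and −2.52 in the FLAG IP arrays, against −2.07 and −1.98 in the Input arrays, and was not called (−0.43 ± 0.14), where Rpl3 fell by 0.69 ± 0.13. The differences between a paralogue and its relative were not tested. Rps19bp1 fell by 0.90 ± 0.16, and its second probe had −1.14.

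RefSeq start sites (GRCm38.p6) were available for 64 of the 84 members, with 76 start sites in all. A TOP tract, searched on the transcript strand as a C at the annotated first base followed by at least 4 bases that are each C or T, stood at 13 of these (17.1%), against 2.51% of 32851 start sites in the table. The 30 bases around 7 of them are shown to set members with large decreases beside members that were not called, with 10 bases before the start, and the tract in capitals.
Rps6, chr4:86857348-86857377, minus strand: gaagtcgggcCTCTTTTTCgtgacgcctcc
Rpl35, chr2:39005112-39005141, minus strand: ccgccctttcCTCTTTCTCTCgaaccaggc
Rps15a, chr7:118116128-118116157, minus strand: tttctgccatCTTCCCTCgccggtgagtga
Rpl28, chr7:4792955-4792984, plus strand: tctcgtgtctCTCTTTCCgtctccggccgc
Rpl15, chr14:18270967-18270996, minus strand: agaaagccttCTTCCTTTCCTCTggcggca
Rps18, chr17:33955646-33955675, minus strand: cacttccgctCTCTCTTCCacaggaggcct
Rplp2, chr7:141447641-141447670, plus strand: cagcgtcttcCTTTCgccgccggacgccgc

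The tract thus stood at the start of Rps6, Rpl35, Rps15a and Rpl28, with changes of −1.76 to −1.28, and equally at that of Rpl15, Rps18 and Rplp2, which were not called. Tracts were 9, 11, 8 and 8 bases long in the first 4 and 13, 9 and 5 bases in the last 3. The median change was −0.71 over the 13 members with the tract at an annotated start, of which 10 were lower, and −0.80 over the 51 members without it there, of which 37 were lower. Annotated starts can lie some bases from the start in use, so a missing match says only that these letters do not open this annotation. The sequence CCGGAAG, chosen after the start sites were seen and counted on both strands within 50 bases of the start, was found at 18.4% of the members' start sites and 5.21% of all.

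Transcripts that work with the ribosome or share the TOP tract included called and uncalled genes. Fau, which encodes the ribosomal protein S30 as a fusion and lies outside the naming rule, was at 6.88 and 6.86 in the FLAG IP arrays, against 7.13 and 6.88 in the Input arrays, with FLAG IP 1 just above Input 2, so that its groups overlapped, and a change of −0.14 ± 0.16 (adjusted p = 0.522). Rack1, a scaffold on the small subunit's head, had −0.08 ± 0.18 and was not called. Of 22 tested TOP mRNAs outside the family, Fau and Rack1 included, 5 were lower and 0 higher (0 higher also at an unadjusted p under 0.05), with a median of −0.23. The share lower, 22.7%, was near the 21.3% of all features. Among those lower were Tpt1, the translationally controlled tumour protein (−1.72 ± 0.21, adjusted p = 0.00803), the elongation factor subunits Eef1a1 (−1.15 ± 0.19) and Eef1b2 (−0.81 ± 0.14), and Naca, a chaperone at the exit tunnel (−1.13 ± 0.19). Eef2, Pabpc1, Npm1 and Eif4b were not called, at −0.02, −0.23, 0.22 and 0.26.

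Of 35 tested ribosome biogenesis genes 8 were lower (22.9%) and 6 higher, with a median of −0.15, shares near the 21.3% lower and 15.8% higher of all features. Nmd3, the export adaptor of the large subunit, was at 3.11 and 3.22 in the FLAG IP arrays, against 0.78 and 0.84 in the Input arrays, and rose by 2.35 ± 0.14, or 5.1-fold (adjusted p = 0.00379). Nop2, a nucleolar RNA methyltransferase, rose by 1.61 ± 0.14 (adjusted p = 0.00492), and Nop58, Rrs1, Rrn3 and Nolc1 rose by 0.67 to 0.76. Gar1 and Nhp2, of the pseudouridylation complex, had −1.16 ± 0.20 and −0.64 ± 0.14, Emg1 had −0.85 ± 0.22, and Sbds, which helps release EIF6 from new large subunits, had −0.75 ± 0.15, all 4 called lower. Among 76 mitochondrial ribosomal protein genes 38 were lower, against 21.3% of all features, and 1 higher, with a median of −0.54. The differences between these sets were not tested.

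**Figure D5:**
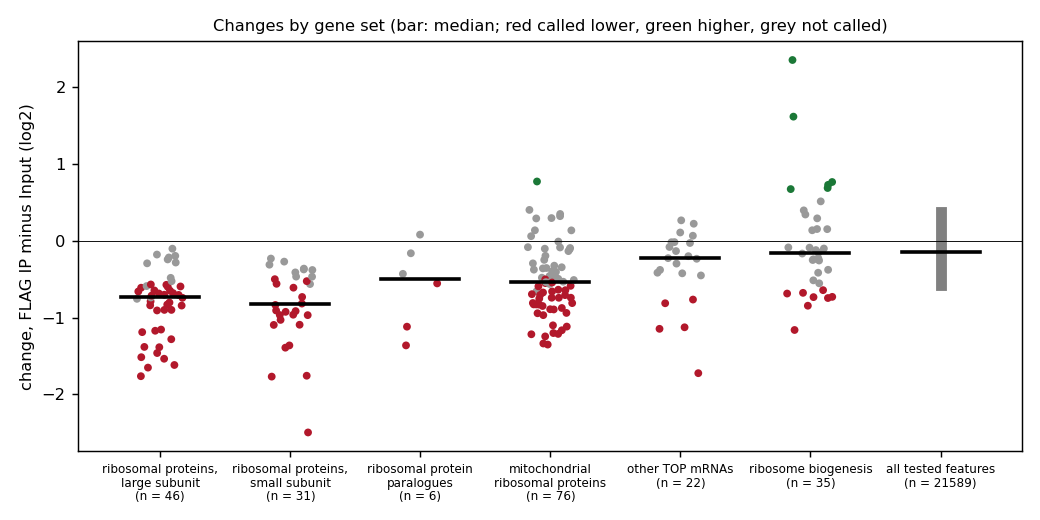
Change of each gene, FLAG IP minus Input (log2), in the 2 subunits of the cytosolic ribosome, its paralogues, the mitochondrial ribosome, TOP mRNAs outside the family and ribosome biogenesis factors. Each point is a gene, red called lower, green called higher and grey not called, the black bar is the median, and for all tested features the grey bar spans the interquartile range. Medians run from −0.82 for the small subunit to −0.15 for ribosome biogenesis and for all tested features.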

How the data were processed

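RNA of 2 FLAG immunoprecipitates and 2 Input samples was hybridised to single-colour (Cy3) Agilent arrays. Per the file headers, the deposited intensity files come from Agilent Feature Extraction (9.5 in the submitters' processing notes) and hold a background-subtracted processed signal, raw median signals and spot flags. The deposited table holds the authors' log2 values, of which 99.6% lay within 0.01 of log2-transformed processed signals once 1 constant per array was removed (column medians 6.25 and 6.15 in FLAG IP, 6.18 and 6.25 in Input).

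Control spots and flagged outliers (62 to 90 spots per array) were left out and spots of a probe averaged. Processed signals were log2-transformed and each array's 75th percentile was subtracted. Accessions matched to RefSeq (GRCm38.p6) named 22951 probes with 16358 symbols. The brightest probe stood for a gene. A feature was kept where both arrays of FLAG IP or both of Input were well above background, and tested with limma 3.58.1 in R 4.3.3 (lmFit, eBayes, two-sided, no covariates) with Benjamini-Hochberg adjustment over 21589 features, and the fit was tested on simulated data. The alternatives were other background corrections, scalings, filters, probe rules and moderation, a replicate block, and leaving out each array. The files used here hold median and not mean spot signals, so normexp correction (offset 50) used the medians. All arrays share 1 slide, so a slide block was not run.

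Members, gene lists and tests were chosen with earlier results of these data known. Named in full were the 10 largest decreases, the 6 least changed, the 3 brightest and 3 dimmest members, the paralogues with their relatives and genes whose probes disagree. A few genes are not reported here by name. Other members were named after their values were seen. Precision is limited by the small number of arrays, and p-values measure the spread between these samples. The replicate numbers do not pair the samples by the labels.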

Additional observations from a re-analysis of the deposited data

How the results depend on the processing

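The members called lower were 59, and 42 to 67 with normexp correction, the deposited table, either filter, averaged probes, trend and robust moderation or a crossed replicate block. They were 34 under quantile and 34 under cyclic loess normalization, 83 under spike-in scaling and 31 with the replicate block, and 5 to 45 with 1 array left out, where the lone array was taken to vary like the other group. Calls higher among members were 0 in every one of these fits. Of the 59, 27 were lower under all 9 alternatives of scaling, filter, probe rule, moderation and block, 12 of them large and 12 small subunit core genes. The same count was not made over all features, so the 27 cannot be read against a background share. Over all features, calls were 3409 higher and 4600 lower, 612 and 12972 under spike-in scaling, 2269 and 2289 with the replicate block, 693 to 3752 and 545 to 4146 with 1 array left out, and 3019 lower without a filter on dim probes. Of all calls 42.6% were higher, 4.51% under spike-in scaling and 52.9% under cyclic loess. Of all features 21.3% were called lower, 19.3% under quantile, 16.4% under cyclic loess, 60.1% under spike-in scaling and 10.6% with the replicate block. The share was 9.05% without a filter on dim probes, where 42 members were lower, and 30.1% with the crossed block, where 67 were. It was 19.8% with normexp correction, 20.7% with averaged probes, 22.2% with the filter on all 4 arrays and 24.5% with trend and robust moderation.

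Spike-in scaling moved the median of all features by −0.93, and relative to the new median 15 of 84 members were lower and 0 higher, against 1374 lower and 2314 higher of 21589 features. The members' median was −0.39 under quantile, −0.48 under cyclic loess and −1.66 under spike-in scaling, and −0.83 to −0.63 with 1 array left out. Relative to the median of all features it was −0.59, −0.30 under quantile, −0.45 under cyclic loess and −0.78 under normexp. Spike-in scaling leaves this −0.59 unchanged by construction, since it and the main scaling each subtract 1 constant per array. In the order quantile, cyclic loess and spike-in the large subunit had −0.39, −0.49 and −1.66 (−0.83 to −0.61 with 1 array left out). The small subunit had −0.34, −0.48 and −1.75 (−0.85 to −0.75). The difference small minus large was 0.046 under quantile and 0.0039 under cyclic loess, −0.050 with averaged probes, and −0.13 to −0.016 with 1 array left out.

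Some named members that were not called changed sign. Under quantile and cyclic loess normalization, in that order, Rplp2 had 0.14 and 0.18, Rpl13 0.23 and 0.15, Rpl7 0.28 and 0.17, Rpl22l1 0.094 and 0.091, Rplp0 0.28 and 0.28, Rps23 0.063 and 0.10 and Rps18 0.037 and 0.027, and Rps4x had 0.050 under quantile. Rplp0 had 0.03 to 0.13 without FLAG IP replicate 1 or Input replicate 1. Rpl7l1 had −0.85 under spike-in scaling, −0.091 with averaged probes and −0.0081 without FLAG IP replicate 2. The cause was not tested. The same-numbered arrays deviated in opposite ways (r = −0.38 over all features), so the replicate block is no better founded than the crossed pairing, chosen after seeing the data, which gave 4321 higher and 6497 lower.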
